A study of Mus musculus with 6 samples.

Results

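The interferon-stimulated genes and the signalling proteins that induce them were examined in sorted mouse skin cells from groups labelled Zfp750 knockout and control. Zfp750 is a transcription factor needed for epidermal differentiation. The genes were taken by name: 48 receptors, kinases, transcription factors, antiviral effectors, sensors, GTPases and class I antigen-processing genes, of the 23934 genes in the table. Every one of the 48 was in the table, and 45 passed the filter on low values and were tested. Ifi44, Oas3 and Oasl1 fell below it. No measured value was used to choose the genes, although results of these data were known when the list was drawn up.

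The study compared 3 control with 3 knockout samples at day 50. The knockouts were Zfp750 fl/fl, and the controls were wt/fl in 2 samples and wt/wt in 1. Both groups carried a single allele of a tamoxifen-activated recombinase, named Lrig1-CreER or Lrig1-CreERT2 in the labels. Lrig1 marks stem cells of the upper hair follicle. Deletion of a floxed allele is expected only where that gene is active, and other cells keep any floxed allele they carry. The labels do not say in which of the sorted cells Zfp750 was deleted. Rosa26 was labelled -/- in 5 samples and +/- in the other, a control. All mice were given 4-hydroxytamoxifen as pups, from day 4 to 7 or from day 5 to 8, and the sorted cells carried the red fluorescent protein tdTomato. The labels do not say whether each library was 1 mouse, so the p-values rest on a spread among libraries that may be partly technical. Each library goes by the number in its column name, S2 to S4 for the controls and S5 to S7 for the knockouts.

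Type I interferons bind the receptor chains Ifnar1 and Ifnar2, whose kinases Tyk2 and Jak1 activate Stat2. With Irf9, Stat2 takes part in a complex that binds the interferon-stimulated response element (ISRE) of antiviral genes. Type II interferon binds Ifngr1 and Ifngr2 and acts at gamma-activated sites (GAS), which drive Irf1, the large GTPases and the genes of class I antigen processing. In skin, keratinocytes, fibroblasts and leukocytes can all respond, and raised interferon-stimulated genes are a known feature of psoriatic lesions.

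Promoters show which of the genes carry these elements. RefSeq windows on GRCm38.p6 matched 39 of the 48 genes. There was no matching window for Mx1, Mx2, Oas2, Usp18, Rtp4, Tap2, Zbp1, Parp9 and Parp14. An ISRE-like match, GAAANNGAAA on either strand, was present in the 250 bases upstream of 14 of the 39 (35.9%), against 936 of all 27025 genes with a window (3.46%). A GAS-like match, TTCNNNGAA on either strand, was present in 12 of the 39 (30.8%), against 2197 of all genes (8.13%). Irf2, Bst2, Gbp7 and Igtp held both motifs, which may overlap. A match here is a description of letters, not a measured binding site.

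The promoters of 5 genes are shown as the 180 bases upstream of the start, 5′ to 3′ on the gene's strand, with the matches in capitals, because they span the responses described later: a ubiquitin-like effector, an RNA-binding effector, viperin, a GTPase and a transcription factor. Isg15 (chr4:156200819-156200998, minus strand) has 3 overlapping ISRE-like matches that start 78, 72 and 66 bases upstream. Ifit1 (chr19:34640709-34640888, plus strand) has 2 that start 104 and 85 bases upstream. Rsad2 (chr12:26456453-26456632, minus strand) has 1 that starts 120 bases upstream. Gbp3 (chr3:142559864-142560043, plus strand) has 2 that start 45 and 39 bases upstream. Irf8 (chr8:120736178-120736357, plus strand) has 2 GAS-like matches that start 171 and 153 bases upstream.
Isg15: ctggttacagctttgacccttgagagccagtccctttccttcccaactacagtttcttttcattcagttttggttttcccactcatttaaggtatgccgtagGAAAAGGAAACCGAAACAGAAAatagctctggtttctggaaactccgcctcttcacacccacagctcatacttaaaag
Ifit1: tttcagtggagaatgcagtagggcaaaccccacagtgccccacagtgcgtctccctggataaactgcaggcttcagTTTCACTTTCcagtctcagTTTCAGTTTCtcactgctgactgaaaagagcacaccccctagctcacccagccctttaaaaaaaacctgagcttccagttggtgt
Rsad2: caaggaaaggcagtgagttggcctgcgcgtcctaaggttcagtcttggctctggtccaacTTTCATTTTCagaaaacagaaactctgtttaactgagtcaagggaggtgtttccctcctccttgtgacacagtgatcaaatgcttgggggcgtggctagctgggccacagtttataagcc
Gbp3: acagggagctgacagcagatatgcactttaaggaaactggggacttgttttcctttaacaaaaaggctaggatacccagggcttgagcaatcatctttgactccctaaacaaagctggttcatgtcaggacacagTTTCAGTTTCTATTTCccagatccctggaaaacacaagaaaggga
Irf8: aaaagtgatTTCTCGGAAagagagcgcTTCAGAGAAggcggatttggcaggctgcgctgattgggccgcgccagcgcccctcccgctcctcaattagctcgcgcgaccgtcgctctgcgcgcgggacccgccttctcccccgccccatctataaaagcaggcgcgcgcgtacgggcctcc

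All values are the authors' normalized counts, read here as estimated reads divided by a size factor for each library. Estimated depth was 15310175 to 20705366 reads, and 3 reads correspond to a value of 2.39 to 3.81. Zfp750 itself stood at 41.9, 3.75 and 314 in the controls (S2, S3, S4) and at 4.90, 1.82 and 7.16 in the knockouts (S5, S6, S7). The library labelled control S3 therefore lay inside the knockout range, and Zfp750 was below the filter and was not tested. Fibroblast transcripts were abundant in every library, and 8 keratinocyte markers were low beside them, at sums of 721 to 22239 in controls and 3099 to 22540 in knockouts. The 7 fibroblast markers summed to 2983869 to 8914254 in controls and to 917792 to 1208776 in knockouts, a sum carried by the collagens Col1a1, Col1a2 and Col3a1, none of them called. The other markers were mixed. Lum and Dcn were also lower, with log2 differences of -0.96 and -0.99, but their groups overlapped and neither was called. Pdgfra was called higher, at 2.37-fold (limma adjusted p = 0.0165), and Dpt differed by -0.02 on the log2 scale. The keratinocyte marker Krt5 stood at 2503, 62.5 and 11805 in the controls and at 1164, 885 and 8559 in the knockouts. The levels thus belong to a mixed population with little keratinocyte RNA, and fewer cells of a type cannot be told apart from less RNA per cell.

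Of the 45 tested interferon genes, Rtp4 rose, Usp18 fell and 43 were not called. The test was limma on log2(value + 9.15), with Benjamini-Hochberg adjustment over all 15935 tested genes and calls at an adjusted p under 0.05. These 2 calls are 4.44% of the 45 genes, a share no higher than the background, since 6.71% of all tested genes were called, 4.12% as higher and 2.59% as lower. An unadjusted p under 0.05 was reached by 13 interferon genes (28.9%), 11 of them with a higher knockout level, against 23.2% of all genes. In 11 genes (24.4%) all 3 knockout values lay above all 3 control values, against 15.7% of all genes. In 2 genes (4.44%) they lay below, against 13.1% of all genes. The knockout level was the higher in 36 of 45 genes (80.0%), compared with 51.2% of all tested genes, and the median log2 difference was 0.22, compared with 0.01.

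Most differences were small, with 32 of the 45 (71.1%) under 0.5 on the log2 scale and 4 (8.89%) over 1, against 66.6% and 13.0% of all tested genes. The lean toward higher values rested on which controls were included. Without control S4 the median was 0.02, with 23 of 45 genes positive, and without control S3 it was 0.41. Rescaling every library to a common total moved the median of all genes by 0.31, and the share of calls that were higher from 61.4% to 78.9%. Under that scaling 5 interferon genes (Gbp3, Parp9, Rtp4, Samhd1 and Tap1) were called higher, where 6.63% of all genes were, and Usp18 alone was called lower.

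**Figure D1:**
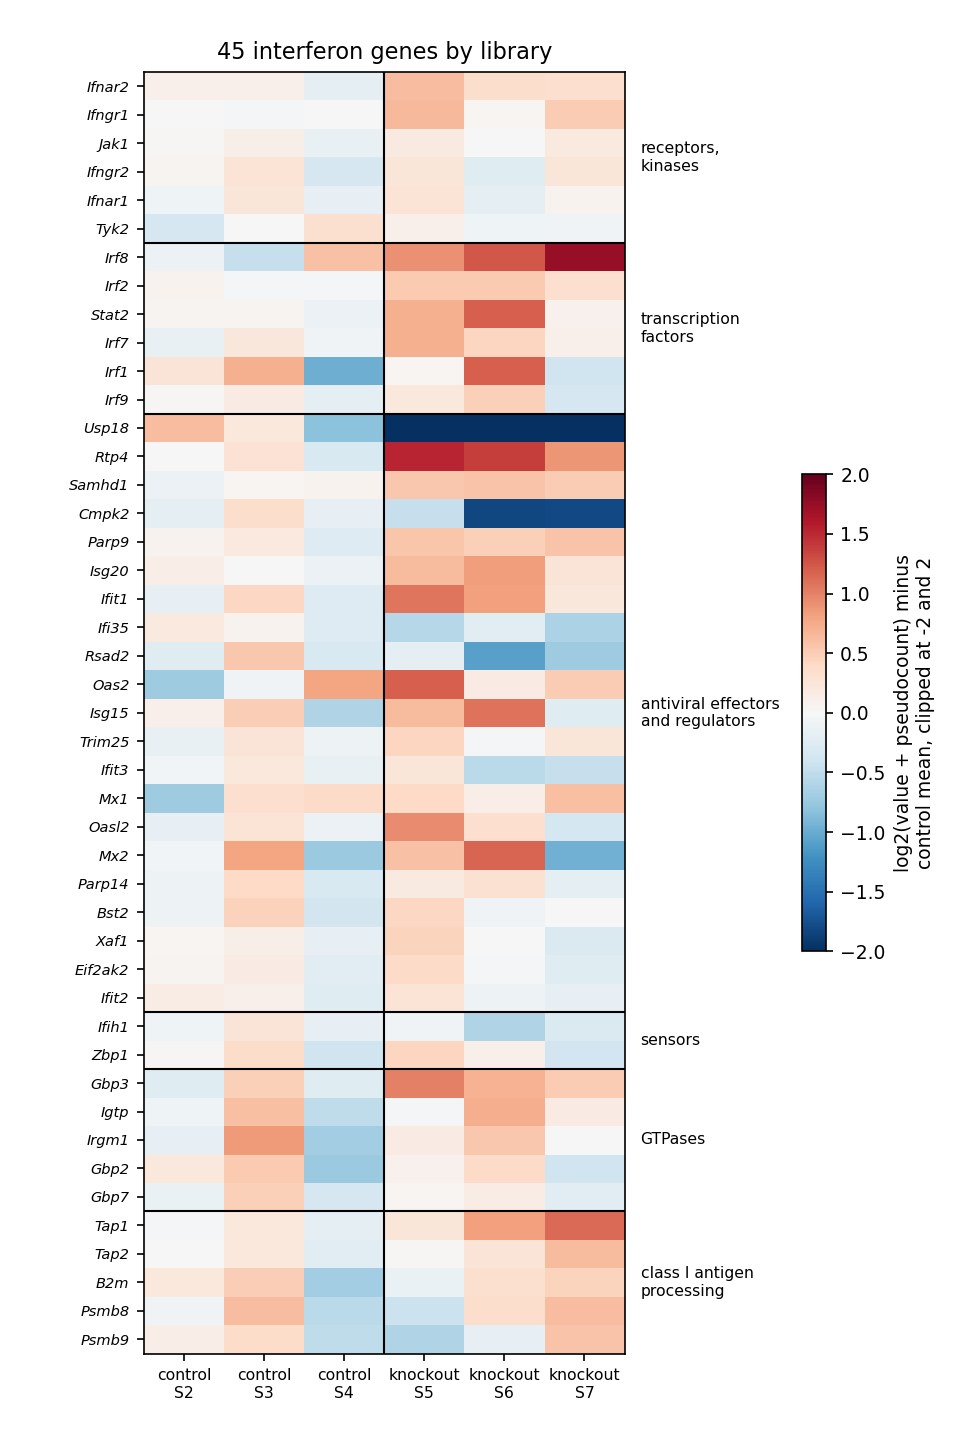
Log2 level of each of the 45 tested interferon genes (rows, grouped by role) in each of the 6 libraries (columns), as the difference from the control mean and clipped at -2 and 2. Usp18 and Cmpk2 are low in all 3 knockouts, Rtp4 and Irf8 are high in all 3, and in 32 of the 45 rows the values of the groups overlap.

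The receptors and their kinases were expressed in every library, and none of the 6 was called. Ifnar2, a chain of the type I receptor, stood at 747, 746 and 609 in the controls and at 1076, 895 and 878 in the knockouts (log2 difference 0.43 ± 0.16 SE, limma adjusted p = 0.163). Ifngr1, the ligand-binding chain of the type II receptor, stood at 2142, 2081 and 2139 in the controls and at 3341, 2179 and 3029 in the knockouts (0.40 ± 0.19, limma adjusted p = 0.254). In both genes the groups did not overlap, although knockout S6 sat close to the controls for Ifngr1.

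Jak1, the kinase that serves both receptors, stood at 4422, 4723 and 3928 in the controls and at 4909, 4387 and 5002 in the knockouts. The groups overlapped, with a log2 difference of 0.13 ± 0.16 (limma adjusted p = 0.674). The partner chains Ifngr2 and Ifnar1 differed by 0.08 and 0.05, and Tyk2, the kinase bound to Ifnar1, by -0.02. The 95% interval for Tyk2 ran from -0.48 to 0.45. The median over the 6 was 0.11.

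All 6 interferon-responsive transcription factors had a positive log2 difference, from 0.12 for Irf9 to 1.30 for Irf8, and none was called. The sign was positive for all 6 also after quantile normalization, with a median of 0.37 beside 0.44, but for 5 of the 6 without control S4 and for 4 without knockout S6. After rescaling the sign was positive for all 6 and the median was 0.75. That scaling moved the median of all genes up by 0.31, which favours positive signs. Irf8, a factor of myeloid and dendritic cells that also acts downstream of type II interferon, stood at 66.1, 50.0 and 114 in the controls and at 145, 185 and 265 in the knockouts. The means were 76.5 ± 33.1 (SD, n = 3) and 198 ± 61.0 (SD, n = 3), which is 2.59-fold higher. The groups did not overlap, and the log2 difference of 1.30 ± 0.34 had a limma adjusted p of 0.0670. Irf8 passed the threshold under quantile normalization, with libraries weighted by their scatter (limma's array weights) and without control S4, where the difference was 1.59.

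Pan-leukocyte markers had the same order of libraries within each group as Irf8, and other leukocyte lists did not all share it. The 5 pan-leukocyte markers, all detected in both groups and none called, summed to 132, 104 and 1394 in the controls and to 676, 2211 and 5766 in the knockouts. As for Irf8, S3 was the lowest and S4 the highest control, and S5 the lowest and S7 the highest knockout. The 8 macrophage and monocyte markers summed to 1243, 1552 and 2120 in the controls and to 1703, 1483 and 11811 in the knockouts, so that S6 and not S5 was the lowest knockout. Of that list Cd14 was called higher, while Csf1r stood at 864, 1096 and 455 in the controls and at 266, 173 and 1760.2 in the knockouts, a log2 difference of -0.78. The 6 mast cell markers summed to 44.5, 55.0 and 614 in the controls and to 1258, 3509 and 1319 in the knockouts, without overlap, and S6 was the highest. Tpsb2 and Fcer1a of that list were called higher, and Fcer1a was at 0 in all 3 controls. Among single markers, Ptprc (CD45) stood at 36.9, 36.2 and 579 in the controls and at 133, 679 and 1158 in the knockouts, and the macrophage marker Adgre1 at 6.35, 5.00 and 57.2 and at 76.5, 33.7 and 372. The 7 dendritic and Langerhans cell markers summed to 92.8, 86.2 and 320 in the controls and to 140, 178 and 486 in the knockouts. That is the order of Irf8 in both groups, and neither of the 2 markers tested was called. The T cell sum had this order in both groups too (80.1, 57.5 and 426, then 169, 1124 and 1514). The NK cell sum was lowest among the controls in S2 (5.08) and not in S3 (6.25). The part of leukocytes in the Irf8 difference was not tested.

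Irf2, a factor that competes with Irf1 for the same sites, stood at 456, 423 and 419 in the controls and at 627, 623 and 548 in the knockouts, with groups that did not overlap (log2 difference 0.46 ± 0.15, limma adjusted p = 0.112). Stat2, the type I-specific STAT, stood at 896, 894 and 789.7 in the controls and at 1410.1, 1982 and 907 in the knockouts (0.66 ± 0.27, limma adjusted p = 0.200). Its control values lay close together, while the knockout values spread over a wide range whose lowest, S7, was barely above control S2. Irf7, which amplifies type I interferon production, differed by 0.41 and Irf1, the first-wave factor of the type II response, by 0.28. The 95% interval for Irf1 was wide, from -0.94 to 1.49.

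Usp18 gave the largest difference of any of the interferon genes. The gene encodes the protease that removes Isg15 from proteins and that binds Ifnar2 to dampen type I signalling, and it is itself induced by interferon. Usp18 (ENSMUSG00000030107; chromosome 6, start 121222865, plus strand, in the table's own coordinates) stood at 571, 428 and 206 in the controls and at 71.6, 28.3 and 59.7 in the knockouts. Every knockout value was under the lowest control. The means were 402 ± 184 (SD, n = 3) and 53.2 ± 22.4 (SD, n = 3), a level 7.55-fold lower in the knockouts. The log2 difference was -2.68 ± 0.43, with a 95% interval from -3.69 to -1.67 and a limma adjusted p of 0.0143.

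The call for Usp18 was lost when control S2, control S3 or knockout S6 was left out (limma adjusted p of 0.0666, 0.0519 and 0.0588), while the difference kept its sign. It held under every other alternative run, without control S4 included. An antisense gene, Gm44148, overlaps Usp18 and stood at 14.0, 26.2 and 7.57 in the controls and at 4.90, 5.47 and 3.98 in the knockouts, below the filter. No source used here says whether reads were counted by strand, so reads of the pair cannot be told apart.

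Cmpk2 and Rsad2, neighbours in the genome, also had negative differences. Cmpk2, a mitochondrial nucleotide kinase induced by interferon, stood at 296, 439.7 and 305 in the controls and at 244, 90.2 and 91.5 in the knockouts. The means were 347 ± 80.4 (SD, n = 3) and 142 ± 88.5 (SD, n = 3), 2.44-fold lower, and the groups did not overlap. The log2 difference of -1.36 ± 0.39 had a limma adjusted p of 0.0849, and it passed the threshold without knockout S5 (-1.81, adjusted p = 0.0165). Rsad2, the radical-SAM enzyme viperin, stood at 66.1, 119.9 and 63.1 in the controls and at 68.6, 32.8 and 45.3 in the knockouts, with overlapping groups (-0.66 ± 0.35, limma adjusted p = 0.305). The genes lie 12.8 kb apart on chromosome 12, on opposite strands.

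Rtp4 was the only interferon gene called as higher. It encodes a receptor-transporting protein that is induced by type I interferon and restrains innate signalling. Rtp4 (ENSMUSG00000033355; chromosome 16, start 23339041, plus strand, in the table's own coordinates) stood at 116, 142 and 91.7 in the controls and at 346, 315 and 220.4 in the knockouts. No knockout value fell within the control range. The means were 116 ± 25.2 (SD, n = 3) and 294 ± 65.5 (SD, n = 3), 2.52-fold higher in the knockouts. The log2 difference was 1.27 ± 0.25, with a 95% interval from 0.68 to 1.85 and a limma adjusted p of 0.0289.

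The Rtp4 call was lost without control S2, knockout S5 or knockout S6 (limma adjusted p of 0.109, 0.0789 and 0.120). It was also lost in a fit with the number in the column names as a replicate block, and held under the other alternatives. Masp1, a complement protease gene on the opposite strand, shares 526 bases with Rtp4 and rose from 1294, 2461 and 930 in the controls to 13374, 19376 and 15662 in the knockouts. That is 10.3-fold (log2 difference 3.46 ± 0.35, limma adjusted p = 0.00274). The difference in Rtp4 means, 177, amounts to 1.22% of the difference in Masp1 means, 14576. A non-coding gene on the same strand, Gm45338, also overlaps Rtp4 and stood at 69.9, 150.2 and 34.5 in the controls and at 144, 168 and 116 in the knockouts, a 1.68-fold higher mean with overlapping groups. The part of reads from either gene in the Rtp4 value was not tested.

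**Figure D2:**
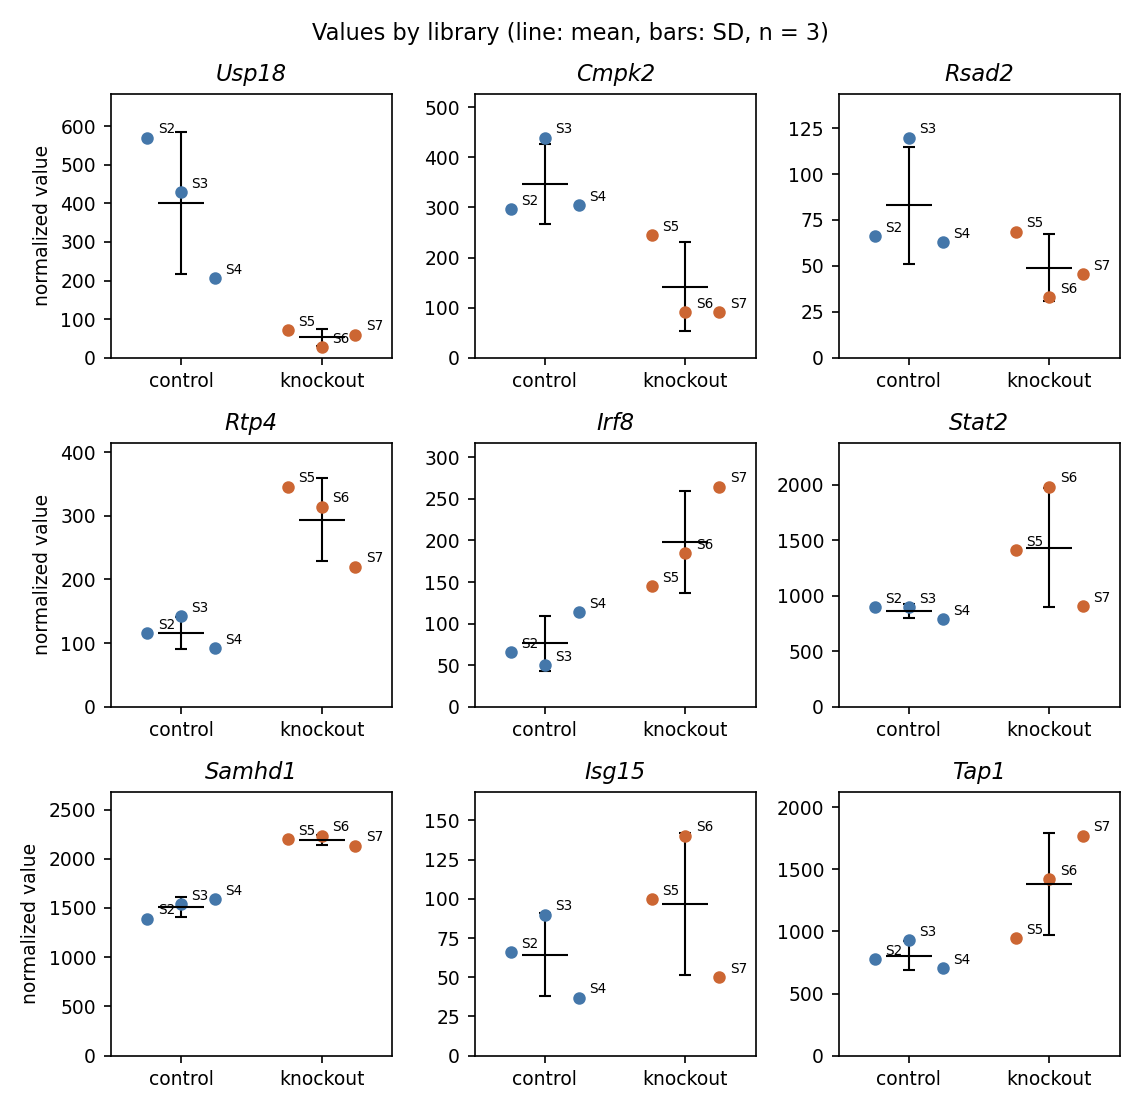
Normalized values (vertical axes, each from 0) of 9 interferon genes in the 3 control and 3 knockout libraries, with points labelled by library, the mean as a line and the SD as bars. Usp18 and Cmpk2 have knockout values below every control, Rtp4, Irf8, Stat2, Samhd1 and Tap1 have them above, and the groups overlap for Rsad2 and Isg15.

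Among the other antiviral effectors, the smallest errors belonged to Samhd1, the dNTP hydrolase that restricts viral reverse transcription. It stood at 1391, 1540.0 and 1588 in the controls and at 2196, 2236 and 2134 in the knockouts, so that the groups were far apart relative to their spread. The log2 difference was 0.54 ± 0.14 with a limma adjusted p of 0.0601, just short of the threshold, and it was called after rescaling to a common total and with weighted libraries. Parp9, an ADP-ribosyltransferase partner that promotes interferon signalling, differed by 0.54 ± 0.17 with groups that did not overlap (503, 551 and 397 against 709, 672 and 720.2). Isg20, an RNA exonuclease, differed by 0.58 ± 0.23, also without overlap (116, 105 and 95.9 against 169, 194 and 128). Neither was called (limma adjusted p = 0.109 and 0.180).

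The genes most often used as a readout of type I interferon showed no called difference. Isg15, the ubiquitin-like modifier that Usp18 removes, stood at 66.1, 89.9 and 37.0 in the controls and at 100.02, 140.4 and 50.1 in the knockouts. Its groups overlapped, and the log2 difference of 0.50 ± 0.43 (limma adjusted p = 0.532) had a 95% interval from -0.49 to 1.49. Ifit1, which binds viral RNA lacking ribose methylation at the cap, stood at 144, 219 and 135 in the controls and at 350.1, 293 and 190.1 in the knockouts (0.70 ± 0.29, limma adjusted p = 0.198). Its relatives on chromosome 19 differed less, Ifit2 by 0.00 and Ifit3 by -0.25, and Ifit3 can share reads with a near-identical copy, Ifit3b.

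Oas2, Oasl2, Mx1 and Mx2 had positive log2 differences of 0.63, 0.31, 0.38 and 0.26, each with overlapping groups and none called. The levels of Mx1 were low in all libraries, from 5.08 to 26.3, and the 95% interval for Mx2 ran from -1.11 to 1.64. Ifi35 differed by -0.47, with an interval from -0.95 to 0.01. Trim25, Parp14, Bst2, Xaf1 and Eif2ak2, the last of them the RNA-activated kinase PKR, differed by 0.22 or less. The 3 genes under the filter were low in most libraries: Ifi44 stood at 6.73 to 24.6, Oasl1 at 5.05 to 27.1 and Oas3 at 2.54 to 74.0.

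Over the 21 tested antiviral effectors and regulators, 16 had a positive difference, 1 was called in each direction, and the median was 0.22. The calls were 9.52% of the 21, against 6.71% of all tested genes. After rescaling the median was 0.54 and after quantile normalization 0.16, and without control S4 it was -0.03. The genes that did not overlap were Rtp4, Samhd1, Parp9 and Isg20 above (19.0%, against 15.7% of all tested genes) and Usp18 and Cmpk2 below (9.52%, against 13.1%). Differences of both signs thus stood side by side in this role. Several of the genes overlap another gene on either strand in the table's coordinates, so their values may hold shared reads. The overlaps differ in length. Igtp lies almost wholly within Irgm2, and Parp9 with Dtx3l and Irf9 with Rnf31 overlap over a small part. Jak1 with Raver2 and Irf7 with Phrf1 meet only at their outermost bases, which leaves little room for shared reads.

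**Figure D3:**
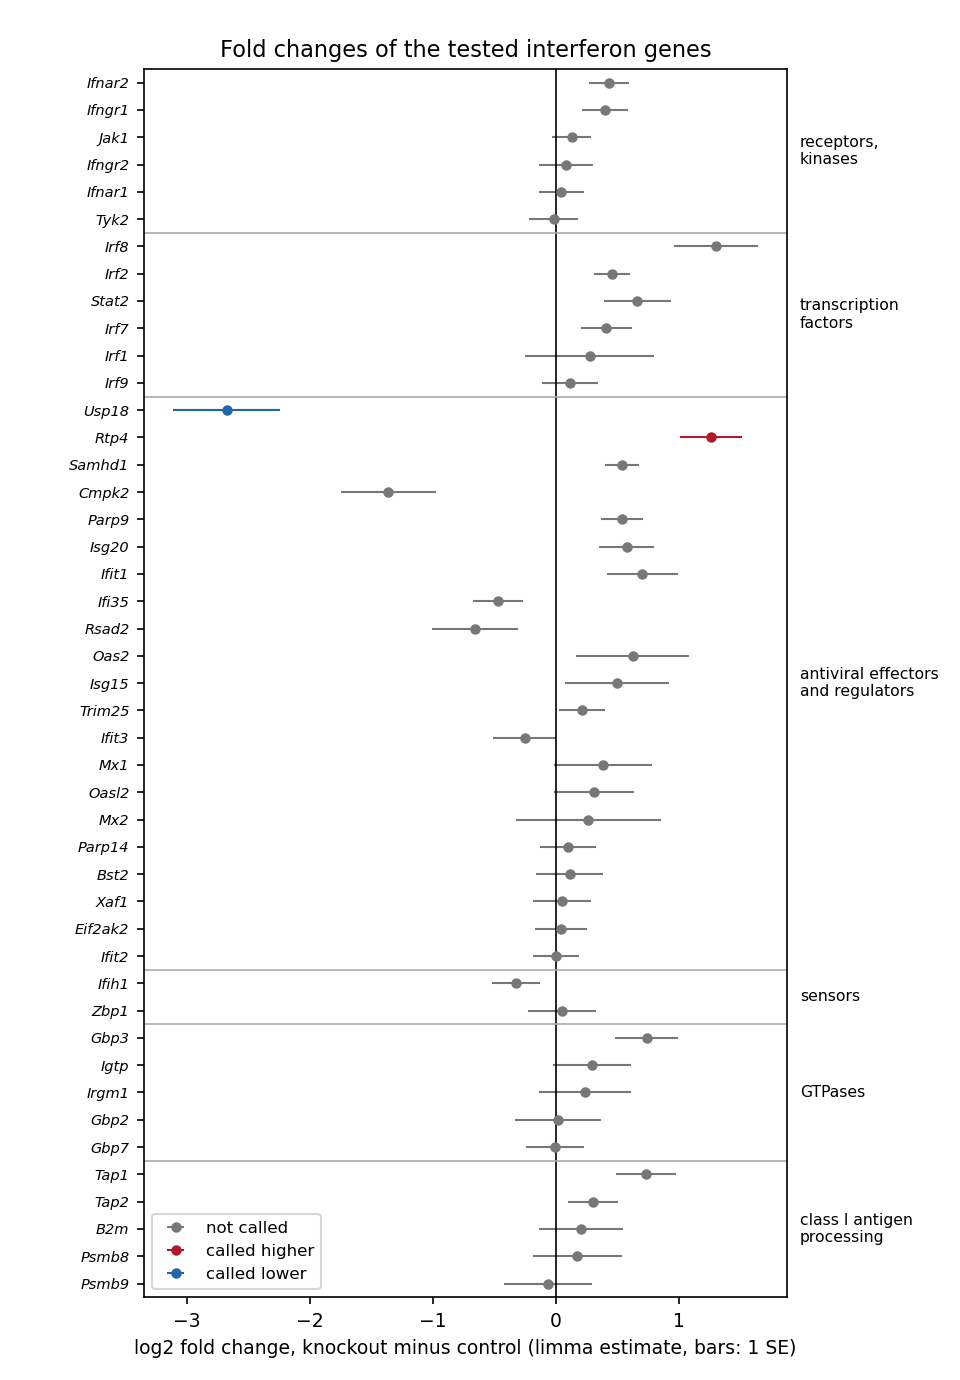
Log2 difference, knockout minus control (horizontal axis), of the 45 tested interferon genes with bars of 1 standard error, grouped by role. Usp18 (-2.68) and Rtp4 (1.27), the called genes, lie far from 0, Irf8 (1.30) and Cmpk2 (-1.36) are as far or farther than Rtp4 but were not called, and 32 of the 45 lie within 0.5 of 0.

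The sensors among the genes were not called. Ifih1, the cytosolic sensor of long double-stranded RNA known as MDA5, stood at 656, 836 and 619 in the controls and at 661, 457 and 566 in the knockouts (log2 difference -0.32 ± 0.20, limma adjusted p = 0.371). Zbp1, which senses Z-form nucleic acid and can start necroptosis, stood at 319, 405 and 235 in the controls and at 426, 335 and 236 in the knockouts (0.05 ± 0.28, limma adjusted p = 0.936). Both pairs of groups overlapped, and the sign for Zbp1 turned without control S4 or knockout S5.

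Of the 5 interferon-inducible GTPases, which attack the membranes around intracellular pathogens, none was called and Gbp3 alone had groups that did not overlap. Gbp3 stood at 161, 272 and 162 in the controls and at 397, 317 and 279 in the knockouts (log2 difference 0.74 ± 0.26, limma adjusted p = 0.139). Its neighbours on chromosome 3, Gbp7 at a gap of 9.88 kb and Gbp2 at 47.4 kb, differed by -0.01 and 0.02. Members of the family are similar in sequence, so reads may have been split among them.

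Igtp, also known as Irgm3, stood at 479, 774 and 353 in the controls and at 502, 851 and 569 in the knockouts (0.29 ± 0.32, limma adjusted p = 0.6305). Irgm1 stood at 639, 1301 and 436 in the controls and at 803, 1038 and 716 in the knockouts (0.23 ± 0.37, limma adjusted p = 0.755). For both, control S3 was the highest control by a wide margin. Without control S4 the median of the 5 GTPases was -0.11, and without control S3 it was 0.59, beside 0.23 with all libraries, 0.56 after rescaling and 0.20 after quantile normalization.

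The class I antigen-processing genes were also not called. Tap1, a subunit of the peptide transporter that loads class I molecules, stood at 779, 932 and 705 in the controls and at 949.8, 1424 and 1772 in the knockouts. The means were 805 ± 116 (SD, n = 3) and 1382 ± 413 (SD, n = 3), with a log2 difference of 0.74 ± 0.24 (limma adjusted p = 0.1265). The groups did not overlap, though knockout S5 was close to control S3, and Tap1 was called without knockout S5 (adjusted p = 0.0489). Its partner subunit Tap2 stood at 785, 917 and 680.4 in the controls and at 798, 942 and 1222 in the knockouts (0.30 ± 0.20, limma adjusted p = 0.4235). B2m, the light chain of class I molecules, stood at 14626, 17766 and 7805 in the controls and at 11504, 15729 and 17222 in the knockouts (0.21 ± 0.34, limma adjusted p = 0.767), and both pairs of groups overlapped.

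Within the knockouts, Tap1, Tap2 and B2m were lowest in S5 and highest in S7, the order of the pan-leukocyte markers given beside Irf8. Psmb8 and Psmb9, catalytic subunits of the immunoproteasome, had the same order in the knockouts, from 368 to 769 and from 106 to 251, and differed from the controls by 0.18 and -0.06. T cell markers had it too: 9 of them, all detected in both groups and none called, summed to 169, 1124 and 1514 in the knockouts and to 57.5 to 426 in the controls. The T cell receptor chain Cd3e stood at 2.54, 1.25 and 172 in the controls and at 24.5, 159.5 and 256 in the knockouts, and the endothelial marker Pecam1 at 262, 237 and 95.03 and at 184, 603 and 2026. This knockout order was not particular to leukocyte lists. The endothelial sum ran 597, 1740 and 6052 over the knockouts, and the sebocyte sum 5267, 9195 and 40707. The keratinocyte, fibroblast, macrophage and mast cell sums did not have it. In the controls the order did not match, since control S4 had the highest pan-leukocyte sum and the lowest control value for all 5 class I genes. The part of leukocytes or of other cell types in these values was not tested. Tap1 lies between Psmb9, which it overlaps, and Psmb8 on chromosome 17, with Tap2 beyond, so the 4 genes of 1 short cluster differed by -0.06, 0.74, 0.18 and 0.30. The median of the 5 class I genes was 0.21, with 0.53 after rescaling, 0.15 after quantile normalization and -0.09 without control S4.

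Within each group the interferon genes tended to be high or low in the same libraries. Control S3 was the highest control for 32 of the 45 genes (71.1%), against 39.6% of all tested genes, and control S4 was the lowest control for 34 (75.6%), also against 39.6%. Among the knockouts S5 was the highest for 22 genes (48.9%, against 32.8%) and S7 the lowest for 23 (51.1%, against 33.7%). The mean log2 level over the 45 genes, relative to the control mean, ran -0.04, 0.28 and -0.24 over the controls, and 0.29, 0.19 and 0.02 over the knockouts. Control S3 thus lay above both knockout S6 and knockout S7.

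In the controls every role was highest in S3 and lowest in S4, whereas in the knockouts the order of the libraries differed between roles. In knockout S7 the class I genes averaged 0.68 above the control mean while the antiviral effectors averaged -0.22. In knockout S5 the order was the other way, with -0.18 for class I and 0.33 for the effectors. The transcription factors were above the control mean in all 3 knockouts, at 0.52, 0.84 and 0.25, and above every control. The GTPases ranged from -0.51 to 0.59 within the controls alone, more than the distance between the groups.

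**Figure D4:**
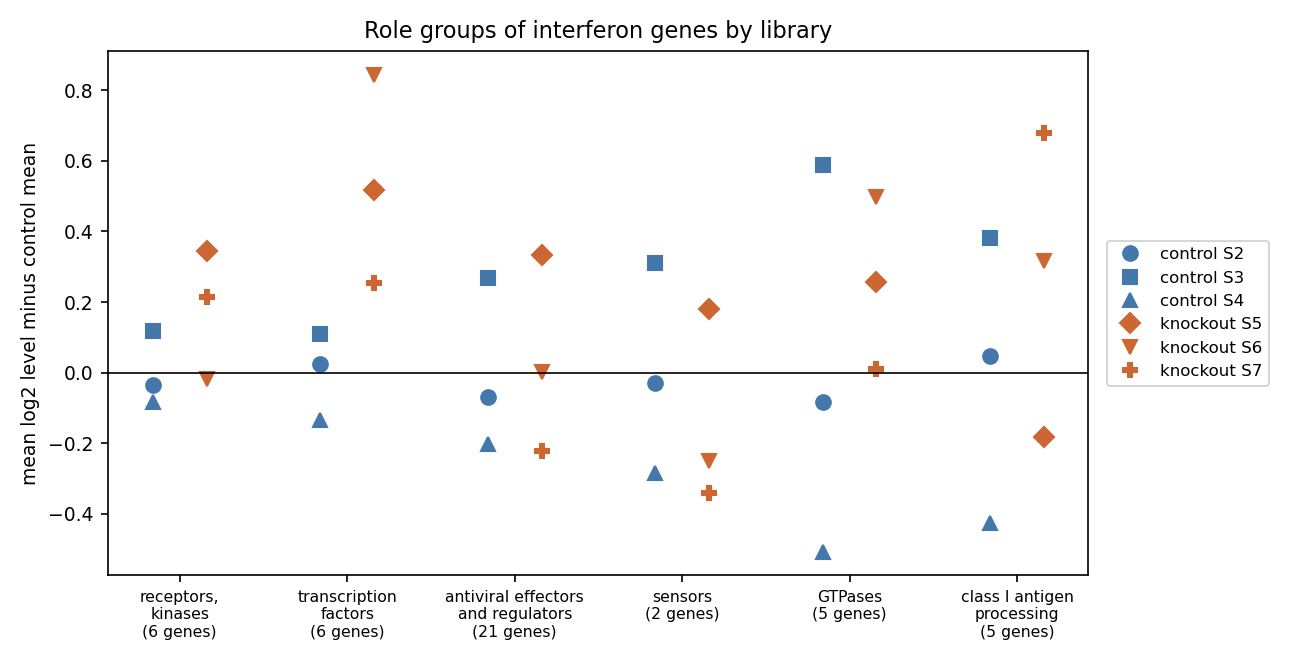
Mean log2 level of each role group (horizontal axis) in each library, relative to the mean of the 3 controls (vertical axis), with a separate symbol for each library. The transcription factors are the role whose 3 knockout points all lie above the 3 control points; in the class I genes knockout S7 (0.68) is highest and in the effectors it is lowest (-0.22).

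The coefficient of variation between libraries had a median of 21.7% in controls and 22.3% in knockouts. It was smallest for Ifngr1 among controls (1.63%) and for Samhd1 among knockouts (2.35%), and largest for Oas2 among controls (68.3%) and Mx2 among knockouts (63.9%). Per kilobase of exon, a scale that allows levels of different genes to be set side by side, B2m was the most abundant of the 48 in both groups (15581 per kb in controls and 17231 in knockouts). Irf1 followed at 951 and 1155 and Ifngr1 at 745 and 1001.

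The differences were also set beside the promoter motifs, as a description. The 13 tested genes with an ISRE-like match had a median log2 difference of 0.23, and the 23 with a window and no match had 0.13. The 12 tested genes with a GAS-like match had 0.28 and the 24 without had 0.12. Of the promoters shown, Isg15, Ifit1 and Rsad2 all hold ISRE-like matches and differed by 0.50, 0.70 and -0.66.

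The wider pathway was read from 137 other genes, of which 126 were in the table and 112 were tested. Of these 6 rose and 1 fell, together 6.25%, close to the 6.71% of all tested genes, and the median log2 difference was 0.14. Of 11 interferon genes listed as ligands, 2 were analysed and both were under the filter. Ifng, the type II ligand made by T and NK cells, stood at 0, 1.25 and 5.89 in the controls and at 0.981, 37.4 and 11.9 in the knockouts, so control S4 and knockout S6 and S7 were above the floor of 3 reads and the others were not. Ifnz, a type I ligand, stood at 3.75 to 3.88 and at 5.57 to 10.8. Ifnb1 was not analysed here.

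Signalling genes outside the 48 gave 1 call among 14 (7.14%, against 6.71% of all tested genes). Jak2, the kinase bound to Ifngr2 that also serves many cytokine receptors, rose from 914, 993 and 831 in the controls to 1654, 2175 and 2004 in the knockouts (log2 difference 1.08 ± 0.16, limma adjusted p = 0.0107), a call lost without control S2 or knockout S6. Socs1, the feedback inhibitor of Jak kinases, stood at 938, 1565 and 772 and at 1005, 1551 and 917, with overlapping groups (0.11 ± 0.31, limma adjusted p = 0.863).

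Of 54 other interferon-stimulated genes tested, 2 rose and 1 fell (5.56%, against 6.71% of all tested genes). Ifitm1, a membrane protein that blocks viral entry and is also made outside an interferon response, rose from 100.4, 72.4 and 79.1 in the controls to 1026, 1909 and 1353 in the knockouts. This was 17.0-fold (log2 difference 3.91 ± 0.25, limma adjusted p = 0.000578), and it was called with each library left out in turn. Ifi207, a nuclear DNA-binding protein of the Ifi200 family, rose from 999, 669 and 1002 to 2098, 2580.4 and 1721 (1.26 ± 0.22, limma adjusted p = 0.0207), a call lost without control S2, knockout S5 or knockout S6. Trim30d fell from 288, 423 and 242 to 173, 122 and 115 (-1.15 ± 0.27, limma adjusted p = 0.0476), a call lost in most alternatives. Ifi207 and Trim30d belong to families of similar genes, so their reads may be shared.

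Of 16 other GTPases and genes of the type II response, 2 rose (12.5%, against 6.71% of all tested genes called in either direction). In this list 14 had a positive difference, against 51.2% of all tested genes, and the median was 0.67, against 0.01, with no test made of the list. Gvin1, a very large GTPase with near-identical copies among which reads may be split, rose from 340.1, 321 and 509 to 1359, 1028 and 1349.8 (1.67 ± 0.22, limma adjusted p = 0.00702), and was called with each library left out in turn. Cd274, which encodes PD-L1, rose from 206, 268 and 165 to 433, 634 and 500.0 (1.27 ± 0.23, limma adjusted p = 0.0227), a call lost without control S2, knockout S6 or knockout S7. Among 13 other sensors and adaptors 1 was called (7.69%, against 6.71% of all tested genes). Sting1, the adaptor of cytosolic DNA sensing, rose from 469, 556 and 419 to 1179, 1468 and 963 (1.29 ± 0.20, limma adjusted p = 0.0119), a call lost without control S2 or knockout S6. None of 16 other class I presentation genes was called. In 3 (18.8%) the knockout values lay above every control, against 15.7% of all tested genes. H2-Q7, a non-classical class I gene, stood at 478, 725 and 403 in the controls and at 733, 3487 and 2815 in the knockouts (4.38-fold, limma adjusted p = 0.0944). H2-Q6, a similar gene with which it may share reads, stood at 208, 347 and 189.8 and at 348, 1686 and 1984 (5.39-fold, limma adjusted p = 0.0946). In both, knockout S5 was barely above control S3. The third was Psme1, a proteasome activator subunit, with a log2 difference of 0.38. These 3 were named after their values were seen.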

How the data were processed

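RNA sequencing of 3 control and 3 knockout libraries of sorted mouse skin cells was analysed. The authors deposited 1 table, named in its headers as normalized counts, and its values are taken as a signal: estimated reads over a size factor (0.787 to 1.26) for each library. This reading comes from the values: 78.7% to 81.2% of those up to 1000 reads are whole within 0.05. The others are fractions, so count models were not used. TopHat2 2.1.0 and Partek 9.0.20.0202 appear, with no step stated, in the submitters' processing notes. The build, annotation release and strand use were not given in the sources used here. The column names give the group, and libraries were not tied to single samples.

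A gene was tested if 3 or more of the 6 libraries held it at 1 per 1000000 of their total or above, which kept 15935 of 23934. The 2-sided test was limma 3.58.1 in R 4.3.3, with moderated variances that followed a trend with intensity. It used log2(value + 9.15), where 9.15 is 0.5 per 1000000 of the average library total. Benjamini-Hochberg adjustment ran over all tested genes. Log2 differences are knockout minus control on that scale, and for low genes they are smaller than the true ratio. The fit was tested on simulated data with the same spread for every gene and planted log2 differences of 1 to 3. That test does not cover smaller differences or a spread that varies between genes, as in these data. Levels per kilobase used exon lengths from GENCODE M21.

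The members and gene lists were chosen with earlier results of these data known, so no test was made of a list. By rule, values in every library are given for called members and for the 3 tested members with the smallest p in each role, and for up to 4 called genes of each pathway list with Socs1 and Ifng. A gene of the naming rule is not reported here. Values of the other members were added to show the range. Alternatives were another pseudocount, filter, scaling, variance model or library weights, and leaving out each library in turn.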

Additional observations from a re-analysis of the deposited data

How the results depend on the processing

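With 3 libraries a group, no call among the 48 genes held in every one of the 15 alternatives. Of the interferon genes, 1 was called higher with all libraries, against 5 after rescaling to a common total, 2 after quantile normalization, 4 with library weights and 0 to 2 with 1 library left out. 1 was called lower, against 0 to 2 with 1 library left out (0 without control S2, control S3 or knockout S6). Calls over all 15935 genes moved as well. They were 657 higher in the main fit, 1057 after rescaling, 617 after quantile normalization and 1132 with library weights. With 1 library left out they ran from 179 to 697. Interferon genes with non-overlapping groups numbered 11 higher, against 21 after rescaling, 7 after quantile normalization and 11 to 18 with 1 library left out, and 2 lower, against 2 to 5. With all libraries 15.7% of all tested genes were non-overlapping above and 13.1% below. Those shares are not given for the alternatives. For a given set of genes, leaving out a library can only add to such counts. Of the other pathway genes 6 were called higher, against 15 after rescaling and 2 to 8 with 1 library left out. 1 was called lower, against 0 with a pseudocount of 2 per 1000000, without a filter, after rescaling, after quantile normalization and without the intensity trend, 3 with library weights, and 0 to 2 with 1 library left out. Signs of single genes were followed for 30 genes only, members and other pathway genes together. Among these, signs turned for B2m with library weights (-0.0030), and with 1 library left out for B2m (-0.14 to 0.45), Zbp1 (-0.15 to 0.27) and Irgm1 (-0.11 to 0.66). Over all 45 tested interferon genes, 36 were positive with all libraries. Without control S4 it was 23, without knockout S5 29 and without knockout S6 32, and 37 or 38 without each of the others. The causes were not tested. Count models were not run, since the values are whole reads only in part. Without the filter Ifi44, Oas3 and Oasl1 were tested too, and none was called. The column names carry a second number, 1 to 3 in the knockouts as in the sample titles but 2 to 4 in the controls, so it does not give the replicate numbers of the labels. A fit with that number as a replicate block, chosen after seeing the data, rests on the 2 pairs that share it (S2 with S6, S3 with S7). Deviations from the group means correlated at 0.25 and -0.22 across genes in these pairs, and at -0.31 to 0.41 in pairs without a shared number. Since the deviations of the 3 libraries of a group sum to 0, these correlations cannot decide whether a pair shares more than a number. The block gave 2 interferon genes called higher (Irf8 and Tap1) and 2 lower (Usp18 and Cmpk2), 8 other pathway genes higher and 4 lower, and a median of 0.03. Over all 15935 genes it gave 1527 calls, 821 higher and 706 lower, against 1070 in the main fit. With the block 23 of the 45 interferon genes were positive, and among the 30 genes followed the signs of Zbp1 (-0.34) and Irgm1 (-0.081) turned.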
